A study of Mus musculus with 12 samples.

Results

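Integrins and leukocyte adhesion genes were followed in the bone marrow (BM) transcriptome of WT, DF, TF and TFD mice. A list of 34 gene names was matched to the gene symbols of the deposited count table, and 31 of them were among its 12199 genes. Itgb8, Jam3 and Esam were not analysed here. The 31 genes encode 11 integrin α chains, 6 integrin β chains, P-selectin and its ligand, members of the immunoglobulin superfamily, other surface adhesion molecules, and talin 1 and kindlin-3, which switch integrins on from inside the cell. All 31 passed the filter on low counts and were tested.

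The study asked how loss of 1 allele of Tet2 or Dnmt3a, whose enzymes remove and set DNA methylation marks, acts together with a Flt3 internal tandem duplication (ITD), an activating change in a receptor tyrosine kinase, and RNA was sequenced from BM cells of C57BL/6 mice. DF mice carried the labelled alleles Dnmt3aFlox/+:MxCre and Flt3 ITD/+, TF mice were heterozygous for Tet2 and carried Flt3 ITD/+, TFD mice carried all of these alleles, and WT mice carried none of them. All mice, WT included, received poly(I:C), the inducer of the MxCre recombinase that deletes the floxed Dnmt3a allele, so every level below is a level after poly(I:C), and MxCre acts in blood cells but also outside the blood lineage. There were 3 WT, 3 DF, 3 TF and 2 TFD libraries, while the third TFD sample was not analysed here. Nothing in the labels says which mouse each library came from, so p values measure the spread between these libraries.

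Integrins are heterodimers of an α and a β chain that hold blood cells to matrix and to other cells. Leukocytes display them in a closed form, and talin and kindlin binding to the β chain tail opens them after a chemokine or selectin signal. In the BM, α4β1 on blood cells binds VCAM-1 on stromal cells and macrophages, the β2 integrins serve neutrophils, monocytes and lymphocytes, and P-selectin glycoprotein ligand 1 lets leukocytes roll on selectins.

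The promoter windows of 6 integrin genes, chosen as pairs of neighbouring or related genes with changes described below, are shown from 250 bases before to 50 bases after the RefSeq start on GRCm38.p6, 5′ to 3′ on the gene's strand. Itga1 and Itga2 lie side by side and changed in opposite directions. Itgb7 and Itgb5 were the β chains that rose most. Itgam and Itgax lie side by side and were the members that differed between DF and TF; this pair was chosen after its values were seen. Capitals mark AGATAA, the core bound by GATA factors, and GAGGAA, a core bound by PU.1 and other ETS factors, each searched on both strands, so that TTCCTC is GAGGAA read from the other strand; the searched motifs do not overlap one another in these windows.
Itga1 chr13:115101915-115102214, minus strand: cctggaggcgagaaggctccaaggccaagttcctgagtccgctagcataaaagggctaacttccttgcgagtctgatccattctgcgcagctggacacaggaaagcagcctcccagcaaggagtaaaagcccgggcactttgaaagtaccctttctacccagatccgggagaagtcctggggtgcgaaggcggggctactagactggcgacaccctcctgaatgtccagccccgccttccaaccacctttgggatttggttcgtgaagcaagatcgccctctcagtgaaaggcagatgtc
Itga2 chr13:114932051-114932350, minus strand: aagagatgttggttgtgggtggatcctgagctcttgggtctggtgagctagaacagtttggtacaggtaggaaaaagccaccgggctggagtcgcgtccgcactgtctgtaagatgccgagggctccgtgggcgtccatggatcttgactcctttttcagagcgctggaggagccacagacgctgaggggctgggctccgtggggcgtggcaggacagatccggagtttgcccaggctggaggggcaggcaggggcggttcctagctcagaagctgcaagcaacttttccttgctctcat
Itgb7 chr15:102231886-102232185, minus strand: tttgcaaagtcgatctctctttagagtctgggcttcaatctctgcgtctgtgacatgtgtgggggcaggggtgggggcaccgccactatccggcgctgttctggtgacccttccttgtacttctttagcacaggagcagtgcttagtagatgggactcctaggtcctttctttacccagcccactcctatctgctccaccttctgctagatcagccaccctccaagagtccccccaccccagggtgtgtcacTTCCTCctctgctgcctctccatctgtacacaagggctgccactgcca
Itgb5 chr16:33829415-33829714, plus strand: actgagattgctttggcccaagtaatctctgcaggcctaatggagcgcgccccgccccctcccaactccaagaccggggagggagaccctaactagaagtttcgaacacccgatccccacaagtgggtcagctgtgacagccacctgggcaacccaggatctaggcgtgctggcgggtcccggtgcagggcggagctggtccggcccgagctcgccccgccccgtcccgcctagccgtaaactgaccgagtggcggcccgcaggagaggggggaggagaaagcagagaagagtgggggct
Itgam chr7:128062390-128062689, plus strand: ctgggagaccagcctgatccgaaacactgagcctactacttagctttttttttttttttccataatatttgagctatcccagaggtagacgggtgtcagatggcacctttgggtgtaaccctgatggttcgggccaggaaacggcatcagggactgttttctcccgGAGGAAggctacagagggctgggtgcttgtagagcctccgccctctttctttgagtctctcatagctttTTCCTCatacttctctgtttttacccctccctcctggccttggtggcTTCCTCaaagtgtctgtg
Itgax chr7:128129300-128129599, plus strand: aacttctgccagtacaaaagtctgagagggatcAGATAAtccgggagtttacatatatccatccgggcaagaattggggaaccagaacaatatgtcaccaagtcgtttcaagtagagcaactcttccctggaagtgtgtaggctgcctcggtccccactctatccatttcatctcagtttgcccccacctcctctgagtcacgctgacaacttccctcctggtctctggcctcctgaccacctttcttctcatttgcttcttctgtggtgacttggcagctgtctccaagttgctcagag

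Among all 32851 windows of this length, 11.2% held the GATA core and 28.3% held the ETS core. Windows were found for 22 of the 34 names, of which 2 (Cd44 and Itgax) held the GATA core and 10 held the ETS core. The ETS core stood 3 times in the Itgam window and 1 time in the Itgb7 window, and neither motif was found in the windows of Itga1, Itga2 and Itgb5. These matches describe the letters of the windows only.

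The libraries held between 8274153 and 15900904 counts over the genes of the table, and between 12155 and 12195 genes had a count. Levels are CPM, counts scaled to a common library size with TMM factors, and levels of different genes are compared only as CPM per kilobase of exon. Calls were made with edgeR's quasi-likelihood test at an adjusted p (Benjamini-Hochberg, over 12175 genes) under 0.05. The labels name mononuclear BM cells, and the summed level of 12 neutrophil markers was between 36210 and 46530 CPM in WT, so granulocyte RNA was abundant in these libraries. TF replicate 3 stood nearest to WT of the mutant libraries in several lists: erythroid markers summed to 1959 CPM there, against 667 and 831 CPM in the other TF libraries and 2104 to 2683 CPM in WT. Calls in TF are given without it where its omission ended the call or moved the value. A fit without 1 of the 2 TFD libraries leaves a single TFD library, which is then assumed to vary as the libraries of the other genotypes do. WT replicate 3, TF replicate 3 and TFD replicate 2 were female by their Xist reads (30976 to 42152, against at most 538 in the others), and DF held no such library. In bulk RNA, fewer cells of a type cannot be told apart from less RNA per cell.

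In WT, the highest levels per length among the members belonged to Itgb2, the common β2 chain, at 223 ± 33.1 CPM per kilobase (SD, n = 3), and Itgam, its partner in the complement receptor Mac-1, at 211 ± 28.6. Cd47, the "do not eat me" signal read by macrophages, and Tln1 followed at 172 ± 20.9 and 164 ± 18.1, where Itgb2 and Itgam lay within 1 SD of each other, as did Cd47 and Tln1. Cd44, a hyaluronan receptor, was at 114 ± 14.0, and Itgb2l, a close relative of Itgb2 that is found in granulocytes, at 103 ± 10.2. The low end was formed by Itga2 (1.05 ± 0.12), F11r (0.469 ± 0.361) and Itgae (0.182 ± 0.0915). Itgb7 moved up this order: it was in position 14 of 31 in WT at 33.7 ± 3.53 CPM per kilobase and in position 9 in DF, 6 in TF and 5 in TFD, where it reached 137 ± 11.7 (SD, n = 2). Itga1 moved from position 21 to position 14 in every mutant genotype.

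**Figure D1:**
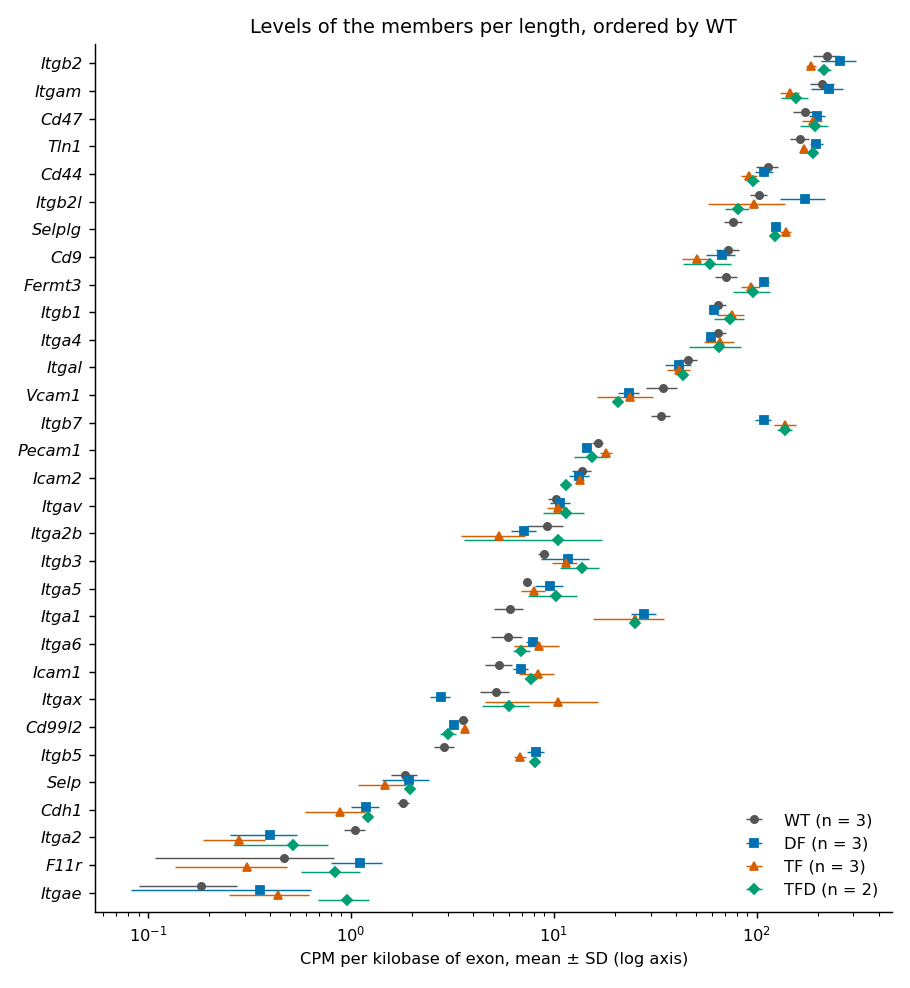
Level of each of the 31 genes per kilobase of exon (x axis, log scale) as mean ± SD, with 1 symbol per genotype and genes ordered by their WT level. Itgb7 and Itga1 lie to the right of WT in all mutants, from 33.7 to at least 108 and from 6.09 to at least 25.1 CPM per kilobase.

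Against WT, 6 members were called higher and 3 lower in DF, where 21.0% of all genes tested were higher and 16.6% lower. In TF, 8 were higher and 5 lower, where 19.0% of all genes were higher and 15.6% lower. In TFD, 8 were higher and 1 lower, where 14.7% of all genes were higher and 11.6% lower. As shares of the 31 members these are 19.4% and 9.68% in DF, 25.8% and 16.1% in TF, and 25.8% and 3.23% in TFD, so the list did not move as a block. The members' shares stood furthest from those of all genes in TFD, where the share called higher was larger and the share called lower was smaller, and this difference in shares was not tested. The median log2 fold change of the members was 0.11 in DF, 0.04 in TF and 0.18 in TFD, beside 0.05, 0.02 and 0.01 over all genes. All comparisons with WT share the same 3 WT libraries, so their values are given side by side and a gene called in several of them is not independent evidence for each. Without WT replicate 3 the members called higher in TFD numbered 4 instead of 8, and the share of all genes called in that fit is not given here.

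**Figure D2:**
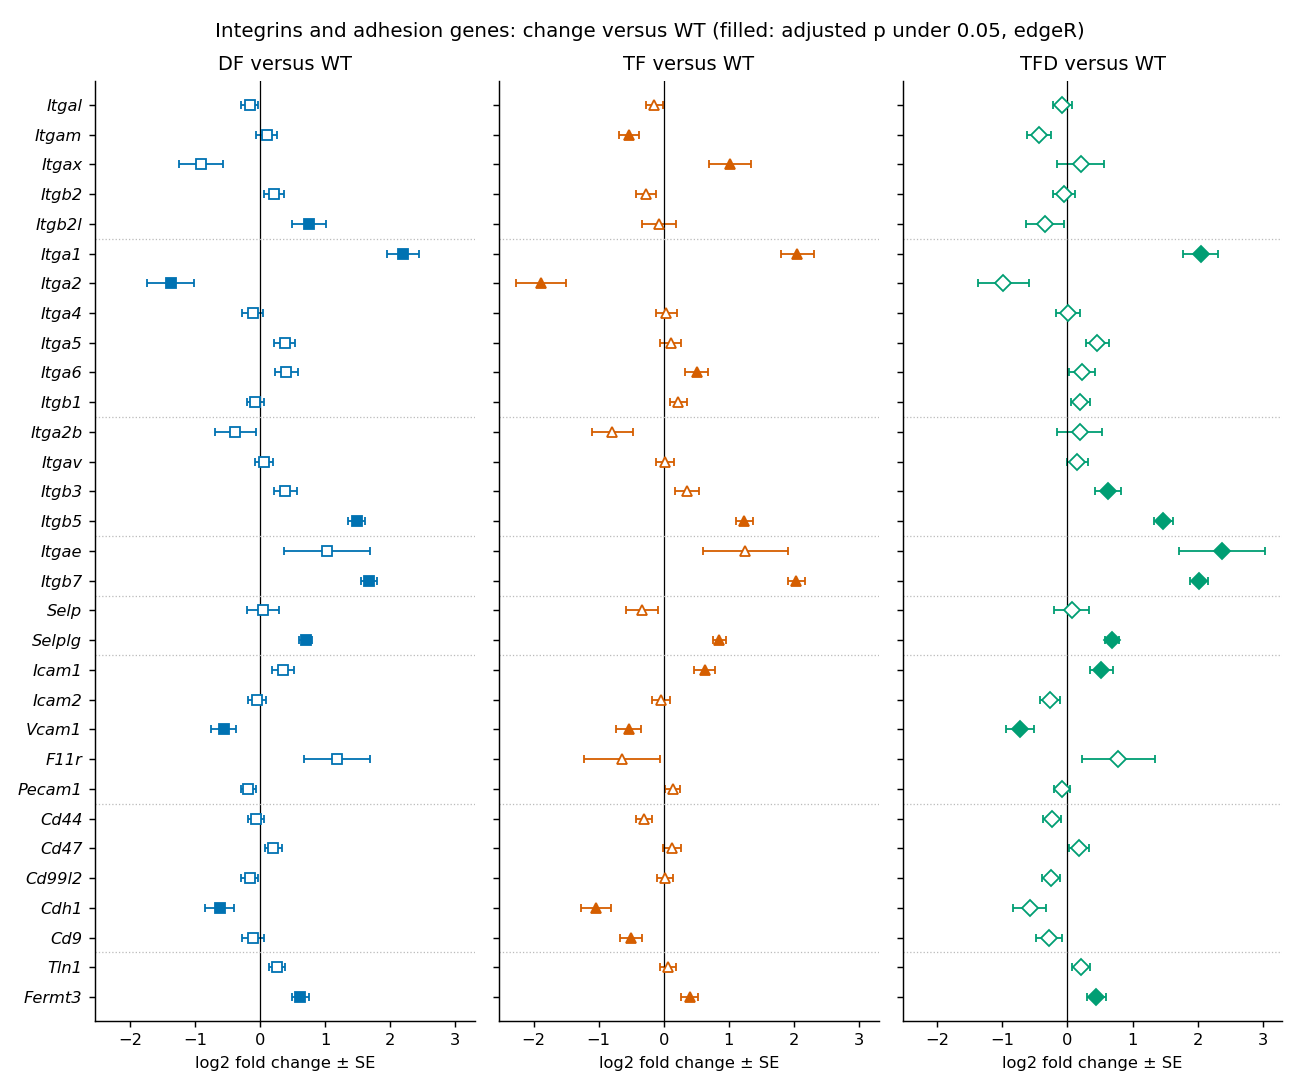
Log2 fold change versus WT of each member (x axis, with SE from edgeR), 1 panel per mutant genotype, filled where the adjusted p was under 0.05 and with dotted lines between groups of related genes. Itga1, Itgb5, Itgb7, Selplg and Fermt3 are filled to the right and Vcam1 to the left in every panel. Of the β2 and β1 chains, Itgal, Itgb2, Itga4, Itga5 and Itgb1 are open in every panel.

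Of the β1 family, Itga1, which encodes the α1 chain of the collagen and laminin receptor α1β1, showed the largest rise. It was at 29.8, 41.5 and 38.1 CPM in the WT libraries, at 150, 158 and 194 CPM in DF, at 190, 178 and 85.0 CPM in TF, and at 152 and 149 CPM in TFD. Every mutant library was above every WT library, and TF replicate 3 was the lowest of the mutants. The log2 fold change versus WT was 2.20 in DF (adjusted p = 4.41e-05, SE 0.25), 2.05 in TF (adjusted p = 8.02e-05, SE 0.25) and 2.05 in TFD (adjusted p = 0.00017, SE 0.27), a rise of 4.59-, 4.16- and 4.14-fold. Without TF replicate 3 the value in TF was 2.34 (adjusted p = 1.62e-07). The summed level of 12 monocyte and macrophage markers was 1831 to 1963 CPM in WT and 5019 to 6352 CPM in the mutants, and that of 9 stem and progenitor cell markers was 297 to 364 CPM in WT and 445 to 641 CPM in the mutants, with none of either list at or under 3 counts in every library. Neither list moved one way. Of the progenitor markers 5 were called higher and 2 (Slamf1 and Gfi1b) lower in DF, 4 higher and 1 (Gfi1b) lower in TF, and 4 higher and 2 (Slamf1 and Gfi1b) lower in TFD, and of the monocyte and macrophage markers 7 were higher and 3 (C1qa, C1qb and C1qc) lower in DF, 8 higher and 0 lower in TF, and 6 higher and 2 (C1qb and C1qc) lower in TFD. WT and the mutants did not overlap in either sum, as they did not in Itga1, and the part of these markers in its level was not tested.

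Its neighbour Itga2 went the other way. Itga2 encodes the α2 chain of the platelet collagen receptor α2β1, and its gene lies on chromosome 13 of mm10 (114835912 to 114932041, minus strand), 26039 bases from Itga1 (114958081 to 115101964, minus strand). Its level was low in all libraries, at 3.86, 4.58 and 4.84 CPM in WT, at 1.03, 2.25 and 1.78 CPM in DF, at 0.727, 1.47 and 1.37 CPM in TF, and at 2.94 and 1.43 CPM in TFD. No mutant library reached the lowest WT library, and TFD replicate 1 came nearest. Itga2 was 2.59-fold lower in DF (log2 fold change −1.37, adjusted p = 0.0106, SE 0.36) and 3.70-fold lower in TF (−1.89, adjusted p = 0.00246, SE 0.38). In TFD the value was −0.98 (adjusted p = 0.0871, SE 0.40), which did not pass the test and became −1.62 (adjusted p = 0.0467) without TFD replicate 1. These libraries held between 9 and 54 reads of Itga2, so its values carry a larger counting error than those of Itga1.

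Of the remaining chains of this family, Itga6 was called in TF and the others in no mutant. Itgb1, the common β1 chain, was at 271 ± 24.3 CPM in WT, 257 ± 6.68 in DF, 316 ± 49.5 in TF (SD, n = 3 each) and 311 ± 53.5 in TFD (SD, n = 2), and its log2 fold changes versus WT of −0.07, 0.22 and 0.20 did not pass the test. Itga4, the α chain of the VCAM-1 receptor, had values of −0.11, 0.04 and 0.01 with an SE of 0.16 to 0.18. Itga5, the fibronectin receptor chain, had values of 0.38, 0.11 and 0.46 (adjusted p = 0.0766, 0.628 and 0.0731). Without TFD replicate 1 the value of Itga5 in TFD was 0.72 and passed (adjusted p = 0.0175), as did that of 0.38 in DF (adjusted p = 0.0394), while without TFD replicate 2 it was 0.16 in TFD (adjusted p = 0.563). Itga6, the laminin receptor chain carried by stem cells and megakaryocytes, was at 36.1, 29.2 and 41.9 CPM in WT, 43.8, 48.2 and 50.6 CPM in DF, 55.2, 61.2 and 36.6 CPM in TF, and 44.6 and 38.9 CPM in TFD. It was called higher in TF (0.51, adjusted p = 0.0417, SE 0.18), where TF replicate 3 lay within the WT range and the value was 0.70 (adjusted p = 0.00243) without it, a fit in which the value of 0.41 in DF passed too (adjusted p = 0.0278), and that call was lost without any single DF library, TF replicate 1 or 2, or WT replicate 1 or 2 (adjusted p up to 0.173), as well as with library totals (0.0511) and in a fit of only TF and WT (0.0867).

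The β7 and β5 chains rose in all mutants. Itgb7 pairs with α4 to bind the gut addressin MAdCAM-1 and with αE to bind E-cadherin. It was at 97.8, 79.6 and 92.9 CPM in WT, at 319, 267 and 282 CPM in DF, at 421, 359 and 333 CPM in TF, and at 345 and 389 CPM in TFD. The lowest mutant library thus held more than the highest WT library, and the TF and TFD libraries were all above those of DF. The log2 fold change was 1.68 in DF (adjusted p = 3.64e-06, SE 0.13), 2.04 in TF (adjusted p = 8.07e-07, SE 0.13) and 2.02 in TFD (adjusted p = 2.73e-06, SE 0.14). The difference between DF and TF was −0.36 (adjusted p = 0.11, SE 0.12 with edgeR), and DESeq2 gave an adjusted p of 0.0351 for it.

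Itgb5 pairs with αv in the vitronectin receptor αvβ5, which macrophages use to take up dying cells. It was at 10.3, 8.29 and 9.85 CPM in WT, at 27.9, 28.6 and 23.8 CPM in DF, at 24.2, 22.1 and 21.2 CPM in TF, and at 27.3 and 25.7 CPM in TFD. All mutant libraries were above all WT libraries and close to each other. Itgb5 rose 2.81-fold in DF (1.49, adjusted p = 1.09e-05, SE 0.13), 2.36-fold in TF (1.24, adjusted p = 3.29e-05, SE 0.13) and 2.78-fold in TFD (1.48, adjusted p = 2.1e-05, SE 0.14). Itgb7 and Itgb5 were thus higher in the same libraries as the summed monocyte and progenitor markers given beside Itga1. Some of those markers were lower, as given there, and their part in these levels was not tested.

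Of the α partners of these β chains, Itgav was called in no mutant and Itgae was called higher in TFD. Itgav, the partner of β5, was at 72.7 ± 6.67 CPM in WT and between 73.8 and 80.9 CPM on average in the mutants, with log2 fold changes of 0.06, 0.02 and 0.15 that did not pass the test. Itgae, the αE partner of β7, had 4 to 14 reads in WT, 2 to 34 in DF, 15 to 32 in TF and 56 and 59 in TFD. It was at 2.54, 2.19 and 0.198 CPM in DF and at 1.86, 1.23 and 2.92 CPM in TF. Its highest levels were those of the TFD libraries, at 3.50 and 5.26 CPM beside 1.15, 0.99 and 0.358 CPM in WT, and only there was it called in the fit of all libraries (values of 1.03 in DF, which passed without DF replicate 3 with an adjusted p of 0.0362, 1.25 in TF, which was 0.89 without TF replicate 3, and 2.38 in TFD, adjusted p = 0.0187, SE 0.66, and up to 0.0846 without TFD replicate 2 or WT replicate 3), while the difference between TFD and DF (DF minus TFD −1.35, adjusted p = 0.331) and that between TF and TFD (−1.12, adjusted p = 0.645) did not pass the test. Per length, Itgb7 made up 6.30 to 8.74% of the summed β chain level in the WT libraries, 14.4 to 20.8% in DF, 25.0 to 28.5% in TF and 24.2 to 27.7% in TFD. The share of Itgb2 was 46.8 to 53.4% in WT, 39.9 to 43.4% in DF, 35.0 to 38.3% in TF and 38.8 to 42.6% in TFD. As these shares sum to 100% within a library, a rise in 1 chain lowers the others.

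**Figure D3:**
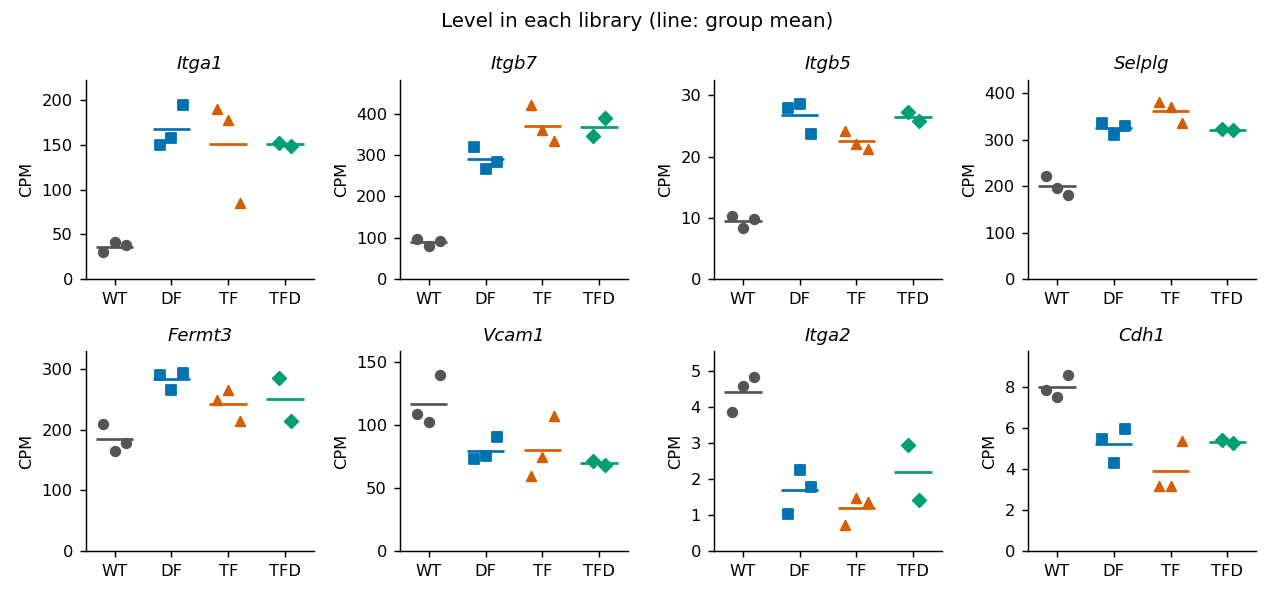
CPM in each library (y axis from 0, 1 panel per gene) of Itga1, Itgb7, Itgb5, Selplg, Fermt3, Vcam1, Itga2 and Cdh1, with 1 point per library and a line at the group mean. Itgb7 and Itgb5 show no overlap between WT and mutants, and TF replicate 3 is the lowest mutant point of Itga1 and the highest of Vcam1.

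Integrin β3 was higher in TFD. Itgb3, which pairs with αIIb on platelets and with αv on other cells, was at 53.0, 54.2 and 48.0 CPM in WT, at 57.9, 57.1 and 89.1 CPM in DF, at 65.4, 76.0 and 57.3 CPM in TF, and at 91.4 and 67.4 CPM in TFD. All mutant libraries exceeded the WT libraries, but by uneven amounts. The log2 fold change passed the test in TFD (0.62, adjusted p = 0.0339, SE 0.20) and not in DF (0.39, adjusted p = 0.102) or TF (0.36, adjusted p = 0.139), and none of the differences between mutants passed. Without TFD replicate 1 it was 0.38 (adjusted p = 0.289), and the call was also lost without any single WT library.

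Itga2b, the αIIb chain of the platelet fibrinogen receptor, was at 36.6, 24.6 and 34.0 CPM in WT, at 24.0, 21.4 and 28.2 CPM in DF, at 16.6, 25.5 and 13.1 CPM in TF, and at 52.7 and 19.3 CPM in TFD. The TFD libraries lay on either side of all the others, apart from TF replicates 1 and 3, which were lower than TFD replicate 2. The log2 fold change was −0.79 in TF (adjusted p = 0.0733), which passed without TF replicate 2 or either TFD library (down to 0.0163), and in TFD it turned from 0.19 (adjusted p = 0.731) to −0.72 (adjusted p = 0.153) without TFD replicate 1. The summed level of 11 megakaryocyte and platelet markers was 35.4 to 53.2 CPM in WT, 18.3 to 27.9 in DF, 21.3 to 33.1 in TF, and 96.5 and 24.8 in TFD, with none of the markers at or under 3 counts in every library, so the 3 libraries highest in Itga2b (TFD replicate 1 and WT replicates 1 and 3) were also the 3 highest in these markers. The part of these markers in the values of Itga2b, Itga2 and Itgb3 was not tested. Selp, the P-selectin stored in platelets and endothelial cells, was at 6.37 ± 0.929 CPM in WT with log2 fold changes of 0.05, −0.33 (−0.57 without TF replicate 3, adjusted p = 0.0909) and 0.07, and shares 438 exon bases with Gm16548 on the other strand.

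Of the 5 β2 integrin genes, Itgam and Itgax differed between DF and TF. Itgam, the α chain of Mac-1 (CD11b), lies on chromosome 7 from 128062640 to 128118491, and Itgax, the α chain of CD11c, follows 11076 bases downstream from 128129568 to 128150657 on the same strand. Itgam was at 1044, 1084 and 835 CPM in WT, at 922, 985 and 1280 CPM in DF, at 681, 753 and 612 CPM in TF, and at 809 and 652 CPM in TFD. All TF and TFD libraries were below all WT and DF libraries. It was 1.45-fold lower in TF than in WT (−0.53, adjusted p = 0.0212, SE 0.16, and −0.46 with an adjusted p of 0.0628 without TF replicate 3), a call also lost without TF replicate 1 or WT replicate 1 or 2 (adjusted p up to 0.0798), with values of 0.11 in DF (adjusted p = 0.625) and −0.43 in TFD (adjusted p = 0.0948).

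Itgax, which marks dendritic cells and some macrophages, was at 24.6, 19.8 and 18.0 CPM in WT, at 12.1, 9.72 and 11.7 CPM in DF, at 38.5, 20.7 and 68.4 CPM in TF, and at 19.6 and 28.6 CPM in TFD. All DF libraries were below all other libraries, and the TF libraries were widely spread, with TF replicate 3 at the top. Versus WT the value was 1.02 in TF (adjusted p = 0.0268, SE 0.32), −0.91 in DF (adjusted p = 0.0513, SE 0.34) and 0.20 in TFD (adjusted p = 0.72). Without TF replicate 3 the value in TF was 0.50 (adjusted p = 0.117), and the call was also lost without WT replicate 2 or 3 and in a fit of only TF and WT (0.0555). The value in DF passed with library totals (0.0331), RLE factors (0.0428), DESeq2 (0.0113) and in a fit of only DF and WT (0.000475), with estimates from −1.0 to −0.94. It did not pass with a term for sex (−0.75, adjusted p = 0.0688), without the filter (0.0513) or in 8 of the 11 fits that left out 1 library (up to 0.147).

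In the comparison of DF with TF, 1 member was higher and 1 was lower in DF, where 1.67% of all genes were higher and 4.27% lower. The higher one was Itgam, by a log2 fold change of 0.64 (adjusted p = 0.0363, SE 0.16), and the lower one was Itgax, by −1.93 (adjusted p = 0.00681, SE 0.34), a level 3.81-fold lower in DF than in TF. The difference in Itgax stayed past the test with each library left out in turn, and was −1.41 (adjusted p = 0.00589) without TF replicate 3. That in Itgam was lost without DF replicate 2, DF replicate 3, TF replicate 1, TF replicate 3 or WT replicate 1, and was 0.57 (adjusted p = 0.137) without TF replicate 3, and with library totals its adjusted p was 0.0518. Itgb2 (adjusted p = 0.0909), Itgb2l (0.0838) and Itgal (0.984) did not pass in this comparison, where DESeq2 also called Itgb2 (0.0339), Itgb2l (0.0185) and F11r (0.0313) higher and Itgb7 (0.0351) lower in DF. A list of 10 dendritic cell markers summed to 323 to 377 CPM in WT, 420 to 544 in DF, 671 to 983 in TF and 527 to 705 in TFD, and 7 of the 10 were lower in DF than in TF. Versus WT the sum hides opposite changes in DF, where 2 of the 10 (Flt3 and Irf8) were higher, 4 (Siglech, Zbtb46, Ccr9 and Tcf4) were lower and the median log2 fold change was −0.54, while in TF 5 were higher and 0 lower. A list of 12 neutrophil markers summed to 42900 to 58980 CPM in DF and 26210 to 35140 CPM in TF, and 2 of the 12 were higher in DF. Their part in the differences of Itgax and Itgam was not tested.

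**Figure D4:**
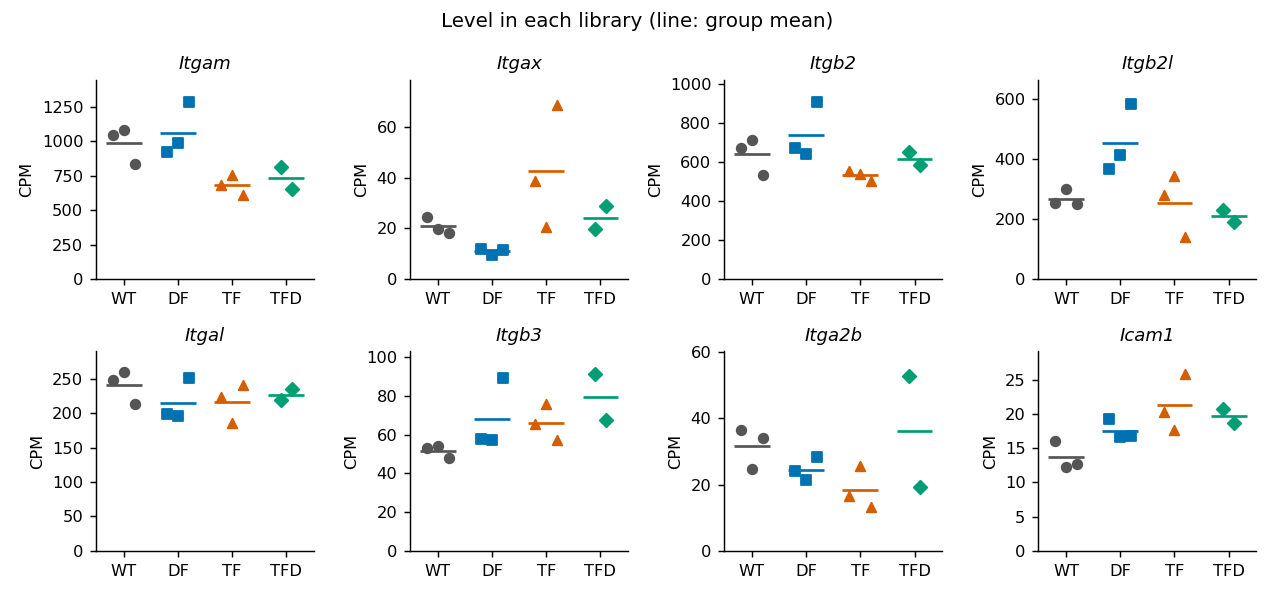
CPM in each library (y axis from 0, 1 panel per gene) of Itgam, Itgax, Itgb2, Itgb2l, Itgal, Itgb3, Itga2b and Icam1, with 1 point per library and a line at the group mean. Itgam separates TF and TFD from WT and DF, Itgax is lowest in DF, and Itga2b is spread widest in TFD, at 52.7 and 19.3 CPM.

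Itgb2l was called in DF alone. It was at 255, 300.1 and 253 CPM in WT, at 369, 413 and 583 CPM in DF, at 282, 344 and 140 CPM in TF, and at 231 and 191 CPM in TFD, so that the DF libraries were the highest. Versus WT the log2 fold changes were 0.76 in DF (adjusted p = 0.0367, SE 0.26), −0.08 in TF (0.22 without TF replicate 3, adjusted p = 0.382) and −0.35 in TFD. It was called in the fits without 6 of the 11 libraries, and not in the fits without DF replicate 2 or 3 or any single WT library (adjusted p up to 0.167), with library totals (0.0543) or with a term for sex by Xist reads (0.57, adjusted p = 0.0641). The differences of DF from TF (0.83, adjusted p = 0.0838) and from TFD (1.11, adjusted p = 0.151) did not pass in the edgeR fit of all libraries. That from TFD passed without TF replicate 3 (adjusted p = 0.0109) and in the fit of only DF and TFD given below. Itgb2 itself, whose loss in people causes leukocyte adhesion deficiency, had values of 0.21, −0.27 and −0.05, and Itgal, the α chain of LFA-1, had −0.16, −0.15 and −0.08, and none of these passed. B cell markers, by contrast, summed to 521 to 612 CPM in WT and to between 17.1 and 126 CPM in the mutant libraries.

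In the fit of all genotypes, no member was called by edgeR between DF and TFD, where 0.0% of all genes were called, or between TF and TFD, where 0.0164% were. At an unadjusted p under 0.05, 5 members (16.1%, beside 14.2% of all genes) differed between DF and TFD and 3 (9.68%, beside 8.77%) between TF and TFD, and DESeq2 called 1 (Itgb2l, higher in DF) and 0. An edgeR fit of only DF and TFD called Itgb2l (adjusted p = 0.0328) and Itgax (0.0228). These comparisons rest on 2 TFD libraries.

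Of the molecules for rolling, Selplg, which encodes P-selectin glycoprotein ligand 1, was higher in all mutants. It was at 221, 197 and 181 CPM in WT, at 337, 309 and 329 CPM in DF, at 380, 370 and 336 CPM in TF, and at 322 and 320 CPM in TFD, and the mutant libraries did not overlap WT. The log2 fold change was 0.70 in DF (adjusted p = 0.000238, SE 0.10), 0.86 in TF (adjusted p = 7.42e-05, SE 0.10) and 0.68 in TFD (adjusted p = 0.000873, SE 0.11). Itga1, Itgb5, Itgb7 and Selplg were the members that stayed called in all mutants with each library left out in turn. Like the other 3, Selplg was higher in the libraries in which the sums of the monocyte and progenitor markers were higher, though some members of the progenitor list in every mutant, and of the monocyte list in DF and TFD, were lower, and their part in its level was not tested.

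In the immunoglobulin superfamily, Vcam1 was lower and Icam1 was higher. Vcam1, the α4β1 ligand on BM stroma and macrophages, was at 109, 102 and 140 CPM in WT, at 73.0, 75.4 and 90.5 CPM in DF, at 59.4, 74.3 and 108 CPM in TF, and at 71.8 and 68.5 CPM in TFD. Only TF replicate 3 reached into the WT range. It was 1.47-fold lower in DF (−0.56, adjusted p = 0.0348, SE 0.19), 1.46-fold lower in TF (−0.54, adjusted p = 0.0417, SE 0.19) and 1.67-fold lower in TFD (−0.74, adjusted p = 0.0234, SE 0.22), and the value in TF was −0.81 (adjusted p = 0.00166) without TF replicate 3. Single calls were lost without DF replicate 1 or 2 or WT replicate 3 in DF (adjusted p up to 0.108), without these or WT replicate 1 or TF replicate 1 or 2 in TF (up to 0.16), and without either TFD library or WT replicate 3 in TFD (up to 0.103). The call in DF was also lost with a term for sex by Xist reads (−0.41, adjusted p = 0.051), and that in TF in a fit of only TF and WT (0.0688). A list of 8 endothelial and stromal markers summed to 25.9 to 38.7 CPM in WT and 37.1 to 85.2 CPM in the mutant libraries, while the sum of the 12 monocyte and macrophage markers was higher in the mutants, as given beside Itga1. The C1q genes of that list, which encode the subunits of complement C1q, are markers of resident macrophages. They were called lower in DF (C1qa, C1qb and C1qc) and TFD (C1qb and C1qc), and none of them was called in TF. The part of either list in the level of Vcam1 was not tested.

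Icam1, the LFA-1 and Mac-1 ligand that inflammation induces, was at 16.1, 12.3 and 12.7 CPM in WT, at 19.3, 16.6 and 16.8 CPM in DF, at 20.4, 17.6 and 25.8 CPM in TF, and at 20.7 and 18.7 CPM in TFD. Every mutant library was above WT. It was called in TF (0.63, adjusted p = 0.0107, SE 0.16, and 0.46 with an adjusted p of 0.0384 without TF replicate 3) and, close to the threshold, in TFD (0.52, adjusted p = 0.049, SE 0.18, and up to 0.21 in the fits that left 1 library out, of which only those without TF replicate 2, TF replicate 3 or WT replicate 1 kept the call, and 0.0530 to 0.0640 with library totals, RLE factors, DESeq2, only TFD and WT, or a term for sex), with 0.35 in DF (adjusted p = 0.107). Icam2 (−0.05, −0.04 and −0.27) and Pecam1, the CD31 of endothelium and leukocytes (−0.18, 0.14 and −0.09), did not pass the test. F11r, a junctional adhesion molecule, had 3 to 48 reads per library and values of 1.18, −0.64 and 0.78, none of which passed. With single libraries left out its value in DF ranged from 0.83 to 1.92, passing without TF replicate 3 (adjusted p = 0.0466) or WT replicate 1 (0.0239), and its values ranged from −1.0 to 0.13 in TF and from 0.39 to 1.56 in TFD.

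Among the other surface molecules, Cdh1 fell. Cdh1 encodes E-cadherin, an epithelial adhesion molecule that erythroid precursors also carry and the ligand of αEβ7. It was at 7.88, 7.55 and 8.59 CPM in WT, at 5.48, 4.31 and 5.94 CPM in DF, at 3.15, 3.19 and 5.38 CPM in TF, and at 5.44 and 5.26 CPM in TFD. All mutant libraries were below all WT libraries. It was 2.06-fold lower in TF (−1.04, adjusted p = 0.00447, SE 0.23, and −1.34 with an adjusted p of 0.000454 without TF replicate 3) and 1.54-fold lower in DF (−0.62, adjusted p = 0.047, SE 0.23, and up to 0.173 without DF replicate 1 or 2, TFD replicate 1 or any single WT library, and −0.52 with an adjusted p of 0.0867 with a term for sex by Xist reads), and the value of −0.58 in TFD did not pass (adjusted p = 0.111, and 0.0499 without TF replicate 3). The summed level of 11 erythroid markers was 2104 to 2683 CPM in WT, 325 to 462 in DF, 667 to 1959 in TF and 653 to 818 in TFD, and its part in the level of Cdh1 was not tested.

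Cd9, a tetraspanin of platelets, mast cells and progenitors, was lower in TF (−0.50, adjusted p = 0.039, SE 0.17). That call was lost without TF replicate 1 or 3 or WT replicate 1 or 2 (adjusted p up to 0.118), and the value was −0.38 without TF replicate 3. It was at 92.3, 92.6 and 73.2 CPM in WT and between 50.4 and 69.8 CPM in the 3 TF libraries, which did not overlap, while DF (74.0, 71.4 and 95.4 CPM) and TFD (83.7 and 57.3 CPM) overlapped WT. Cd44 (−0.06, −0.30 and −0.24, where the value in TF passed without WT replicate 3 with an adjusted p of 0.0341), Cd47 (0.21, 0.13 and 0.18) and Cd99l2 (−0.16, 0.02 and −0.25), which serves leukocyte passage through vessel walls, did not pass the test in the fit of all libraries.

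Of the integrin activators, Fermt3, which encodes kindlin-3, was at 209, 165 and 177 CPM in WT, at 290, 266 and 292 CPM in DF, at 248, 265 and 213 CPM in TF, and at 286 and 213 CPM in TFD. Every mutant library was above WT, with TF replicate 3 and TFD replicate 2 close to the highest WT library. It was called in DF (0.62, adjusted p = 0.00297, SE 0.13), in TF (0.40, adjusted p = 0.0333, SE 0.13) and in TFD (0.44, adjusted p = 0.0402, SE 0.15), and in TFD the value was 0.21 (adjusted p = 0.384) without TFD replicate 1. The call in TF was lost without TF replicate 1 or 2 or WT replicate 2 or 3 (adjusted p up to 0.124), and that in TFD also without DF replicate 1 or 2, TF replicate 1, or WT replicate 2 or 3, and in a fit of only TFD and WT (0.0802). Tln1, the talin of blood cells, was at 1402 ± 155 CPM in WT and 1686 ± 126, 1466 ± 47.6 (SD, n = 3 each) and 1621 ± 31.1 CPM (SD, n = 2) in DF, TF and TFD, and its log2 fold changes of 0.27, 0.06 and 0.21 did not pass. In all, 16 of the 31 members were called in at least 1 comparison with WT, which is 51.6% beside 48.5% of all genes. The other 15 had log2 fold changes from −0.38 to 1.18 in DF, −0.79 to 0.22 in TF and −0.27 to 0.78 in TFD.

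The other genes of adhesion were read from 5 lists with 79 tested genes. In DF 24 of them were called higher and 20 lower, in TF 14 and 17, and in TFD 16 and 14. These are 30.4% and 25.3% of the 79 in DF, 17.7% and 21.5% in TF, and 20.3% and 17.7% in TFD, beside 21.0% and 16.6%, 19.0% and 15.6%, and 14.7% and 11.6% of all genes. Between DF and TF, 3 (3.80%) were higher and 4 (5.06%) lower in DF, beside 1.67% and 4.27% of all genes. The median log2 fold change over these genes was 0.10, 0.00 and 0.02 versus WT.

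Among 18 genes that activate integrins from inside, 5 were higher and 3 lower in DF, 1 and 2 in TF, and 1 and 2 in TFD. The share called higher was 27.8% in DF and 5.56% in TF and TFD, where 21.0%, 19.0% and 14.7% of all genes were higher, and the share called lower was 16.7%, 11.1% and 11.1%, where 16.6%, 15.6% and 11.6% of all genes were lower. The one higher in every mutant was Tln2, a second talin, at 0.895 to 2.55 CPM in WT and 5.38 to 18.2 CPM in the mutant libraries (log2 fold changes 3.07, 2.18 and 3.20, adjusted p = 4.18e-05, 0.000615 and 6.58e-05). Sipa1l1, which inactivates the integrin switch Rap1, was lower, at 89.0 to 163 CPM in WT and 52.2 to 77.2 CPM in the mutants (−0.81, −1.12 and −1.01). Of 21 genes of the adhesion complex and its signalling, 6 were higher and 5 lower in DF (28.6% and 23.8%, beside 21.0% and 16.6% of all genes), 2 and 4 in TF (9.52% and 19.0%, beside 19.0% and 15.6%), and 3 and 2 in TFD (14.3% and 9.52%, beside 14.7% and 11.6%). Syk, the kinase that signals below β2 integrins and immune receptors, was lower in each (−0.52, −0.74 and −0.52, adjusted p = 0.00273, 0.000344 and 0.00844). Tns3, a tensin that links integrins to actin, was higher in each, at 89.8 to 104 CPM in WT and 142 to 193 CPM in the mutant libraries (0.58, 0.74 and 0.80, adjusted p = 0.00144, 0.000359 and 0.000496).

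Of 11 selectin genes and enzymes that build selectin ligands, 4 were higher and 2 lower in each mutant, which is 36.4% and 18.2%, where between 14.7% and 21.0% of all genes were higher and between 11.6% and 16.6% lower. Fut7, the fucosyltransferase that makes P-selectin glycoprotein ligand 1 able to bind selectins, was at 15.3, 9.65 and 11.9 CPM in WT and between 28.1 and 40.6 CPM in the mutant libraries (1.29, 1.67 and 1.36, adjusted p = 5.88e-05, 1.18e-05 and 0.000112), and thus rose together with Selplg. St3gal6, a sialyltransferase of the same pathway, was lower, at 30.5 to 34.6 CPM in WT and 6.75 to 20.4 CPM in the mutants (−1.76, −1.08 and −1.65). Of 12 integrin ligands and matrix genes, 5 were higher and 2 lower in DF (41.7% and 16.7%, beside 21.0% and 16.6% of all genes), 4 and 2 in TF (33.3% and 16.7%, beside 19.0% and 15.6%), and 4 and 1 in TFD (33.3% and 8.33%, beside 14.7% and 11.6%). Fn1, the fibronectin bound by α4β1 and α5β1, was at 673, 617 and 435 CPM in WT and between 1352 and 2851 CPM in the mutant libraries, with log2 fold changes of 2.12, 1.65 and 2.15 (adjusted p = 2.09e-05, 0.00011 and 4.08e-05), and the part of the monocyte markers, whose sum was higher in the same libraries, was not tested. Nid1, a basement membrane protein, was lower (−1.67, −1.59 and −1.45), and its call in TFD was lost without TFD replicate 1 or WT replicate 2 (adjusted p up to 0.15).

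Of 17 other adhesion receptors, 4 were higher and 8 lower in DF (23.5% and 47.1%, beside 21.0% and 16.6% of all genes), 3 and 7 in TF (17.6% and 41.2%, beside 19.0% and 15.6%), and 4 and 7 in TFD (23.5% and 41.2%, beside 14.7% and 11.6%). Those called lower in every mutant were Itga9, Itgad, Cd81, Cd2 of T and NK cells and Cd37 of B cells. Cd82 and Icam4 of red cells were called lower in DF and TFD, Cdh5 in DF, and Mcam and Cd63 in TF. Of 10 B cell markers 10, 9 and 10 were lower in DF, TF and TFD, of 11 T and NK cell markers 8, 5 and 6, with sums of 108 to 118 CPM in WT and 52.3 to 96.9 CPM in the mutant libraries, and of 11 erythroid markers 11, 10 and 10, and the part of these markers in the lower calls was not tested. Cd48, a ligand of the killer cell receptor 2B4, rose from 65.4 to 81.6 CPM in WT to between 187 and 305 CPM (1.43, 1.84 and 1.41). Itgad, the fourth β2 partner chain, lies 23288 bases downstream of Itgax and was at 11.2, 5.82 and 11.9 CPM in WT, 0.635, 0.386 and 0.891 CPM in DF, 1.62, 1.15 and 5.84 CPM in TF, and 0.938 and 4.10 CPM in TFD. It was lower in all mutants (−3.96, −1.78 and −2.0, adjusted p = 0.000746, 0.0285 and 0.0411). Without TF replicate 3 the value in TF was −2.81 (adjusted p = 0.00101), the call in TF was lost without TF replicate 1 or 2 or WT replicate 1 or 3 (up to 0.103), and that in TFD without DF replicate 1 or 2, TFD replicate 1 or WT replicate 1 or 3 (up to 0.258), with values from −3.35 to −1.24. Thus Itgam, Itgax and Itgad, side by side on chromosome 7, had log2 fold changes of −0.53, 1.02 and −1.78 in TF. The exons of Itgad share 69 bases with Cox6a2 on the other strand, which had 119 counts over all libraries beside 498 for Itgad, and the strand setting of the counting is not known here. Itga9, an α chain that pairs with β1, was at 7.39, 7.55 and 11.01 CPM in WT, 1.19, 0.515 and 1.39 CPM in DF, 1.05, 1.47 and 5.84 CPM in TF, and 1.5 and 1.34 CPM in TFD. It was lower as well (−3.11, −1.66 and −2.59, adjusted p = 0.00095, 0.0213 and 0.00769). Without TF replicate 3 the value in TF was −2.77 (adjusted p = 7.59e-05), and the call in TF was lost without TF replicate 1 or 2 or WT replicate 3 (up to 0.0752). Itga8, also an integrin α chain, was higher, at 4.84 to 8.17 CPM in WT and 12.6 to 31.8 CPM in the mutant libraries. Its log2 fold changes were 1.29, 1.78 and 1.97 (adjusted p = 0.00691, 0.00114 and 0.00111), and the value in TF was 2.03 without TF replicate 3.

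**Figure D5:**
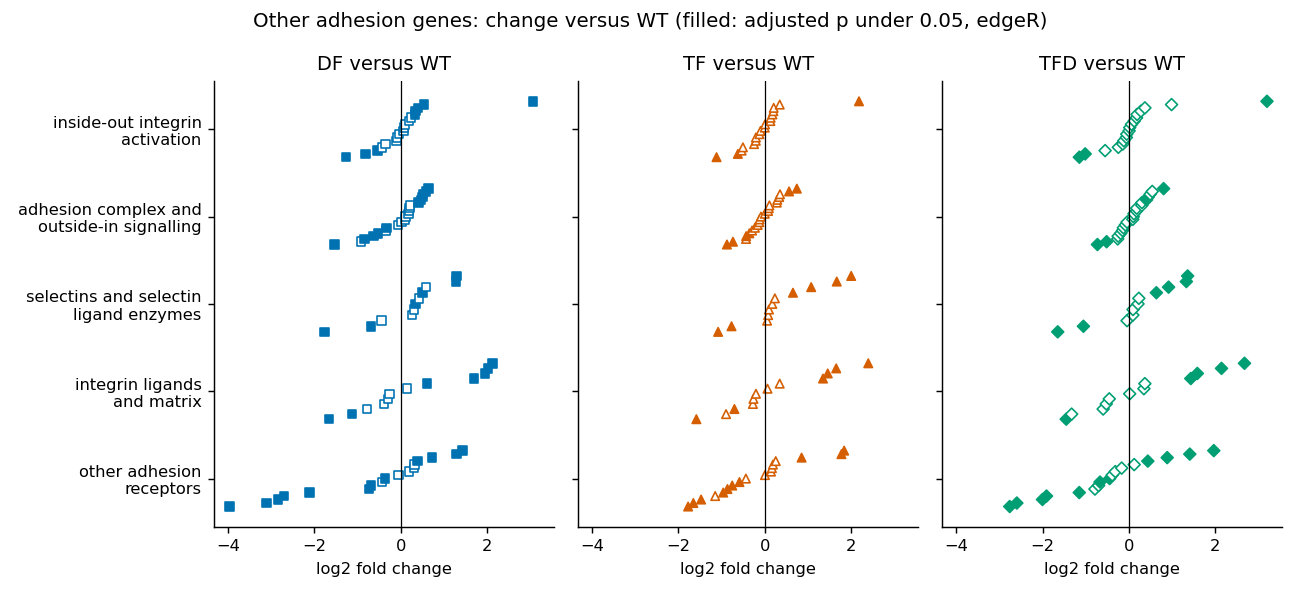
Log2 fold change versus WT of the 79 other adhesion genes (x axis), 1 point per gene in 5 lists, 1 panel per mutant genotype, filled where the adjusted p was under 0.05. The point farthest right among the integrin activating genes is Tln2, at 3.07, 2.18 and 3.20.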

How the data were processed

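BM RNA (the labels name mononuclear cells and the methods whole BM), depleted of globin mRNA and made into stranded total RNA libraries, was analysed in 3 WT, 3 DF, 3 TF and 2 TFD libraries. STAR (mm10) and featureCounts (refGene, uniquely aligned reads) gave the raw counts that the authors deposited, together with log2 CPM values (not used here) and gene lengths, after a filter at 0.5 CPM in more than 3 samples. Tool versions and the strand setting are not given in the sources used here. Overlapping genes can share reads, and the exons of Itga4 overlap Cerkl by 166 bases on the other strand.

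The deposited counts were tested in R 4.3.3 with edgeR 4.0.16 (TMM factors, quasi-likelihood F test, 1 mean per genotype in 1 fit), over 12175 genes that exceeded 0.5 CPM in at least 4 of the 11 libraries. The 24 genes removed included no member. P values were two-sided and adjusted by the Benjamini-Hochberg method, with a threshold of 0.05. Gene positions are those of the deposited table. Depth was 8274153 to 15900904 counts per library. Procedures were tested on simulated counts. The members and lists were chosen with earlier results of these data known, and all members in the table are named. Values in every library are given for called members. Of each other adhesion list, up to 2 called genes with the largest and 2 with the smallest mean change were eligible to be given with values. Further genes of these lists are named without values. Alternatives were library totals, RLE factors, no filter, DESeq2 1.42.0, only the groups compared, the replicate number as a block, a term for sex by Xist reads, and each library left out. Figures were drawn in Python 3.11.15 with matplotlib 3.10.9.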

Additional observations from a re-analysis of the deposited data

Results flagged for a closer look

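Itgam and Itgax, which are neighbours on chromosome 7, changed differently versus WT in DF and in TF, and the difference itself passed edgeR's test. The log2 fold change of DF versus TF was 0.64 for Itgam (0.11 in DF and −0.53 in TF versus WT) and −1.93 for Itgax (−0.91 in DF and 1.02 in TF versus WT). The difference in Itgax was called in every fit that left out 1 library, while that in Itgam was called in 6 of 11, and its adjusted p was 0.0518 with library totals and 0.0598 with a replicate block.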

How the results depend on the processing

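The count of members called lower in DF versus WT, 3, was 5 in a fit of only the groups compared and 1 with a term for sex by Xist reads. DESeq2 called 2 members lower in TFD versus WT instead of 1, 4 higher and 2 lower in DF versus TF instead of 1 and 1, and 1 higher in DF versus TFD instead of 0. A fit of only the groups compared called 1 higher and 1 lower in DF versus TFD instead of 0 and 0. Library totals gave 0 higher in DF versus TF instead of 1. With a library left out in turn, the counts ranged from 1 to 4 lower in DF versus WT, from 5 to 8 higher and from 2 to 6 lower in TF versus WT, from 4 to 8 higher and from 0 to 2 lower in TFD versus WT, from 0 to 2 higher in DF versus TF, and from 0 to 1 in each direction in DF versus TFD. The cause was not tested. The shares of all genes called under the alternatives are not given here, so a changed count cannot be told apart from a change over all genes. Called log2 fold changes of single members kept their sign under every alternative run, and 133 values that were called in neither fit changed sign. Of 11 fits that each left out 1 library, the call was kept in 6 for Itgb2l and 5 for Cdh1 in DF, in 8, 5 and 8 for Vcam1 in DF, TF and TFD, in 8 for Itgax, 7 each for Itgam, Cd9 and Fermt3 and 4 for Itga6 in TF, in 9 for Itgae, 7 for Itgb3, 5 for Fermt3 and 3 for Icam1 in TFD, and in 6 for Itgam in DF versus TF. The other calls of members were kept in all 11. Same-numbered libraries of different genotypes had correlations of their deviations from −0.368 to 0.311. Differently numbered libraries were not compared in this way, so these values cannot tell whether the numbers pair the libraries. With a replicate block the counts were 7 higher and 4 lower in DF versus WT, 7 and 4 in TF versus WT, 6 and 1 in TFD versus WT, and 1 and 1 in DF versus TF. The equal counts in the last comparison hide a change of member: Itgam lost its call (adjusted p = 0.0598) and F11r gained one (0.0407). The block also ended the calls of Itga6 (0.0632) and Cd9 (0.051) in TF and of Itgb3 (0.0544) and Fermt3 (0.0584) in TFD, and gave calls to Itgax (0.0464) and F11r (0.0476) in DF. Without the block, calls were gained in a fit of only the groups compared by Itga5 (0.0494), Itga6 (0.0456) and Itga2b (0.0469) in DF and Itga2b (0.0321) in TF, with DESeq2 by Itga2b (0.029) and Cd44 (0.0294) in TF, Itgam (0.0352) in TFD, and Itgb2 (0.0339), Itgb2l (0.0185), Itgb7 (0.0351) and F11r (0.0313) in DF versus TF, and with the term for sex by Itga2b (0.0267) and Cd44 (0.0499) in TF. Depth limits Itga2, Itgae and F11r, whose counts per library were 59 or fewer, and 2 TFD libraries limit every comparison with TFD.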
